A study of Homo sapiens with 4 samples.

Results

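The genes described here are 10 members of the chemokine system: the receptors CXCR4, CCR2 and CCR7, and the chemokines CCL3, CCL4, CCL5, CCL20, CCL22, CXCL8 and CXCL10. Their probes were found by gene symbol, with symbols brought up to date through the Entrez identifier, so that probes filed under an older name would also be found. All 10 had a value on at least 3 of the 4 arrays, among 4212 named genes and 7713 features (named genes and unnamed probes) that met this minimum in the whole series. The 10 genes had 49 of the 15246 probes of the array, of which 43 had a value on some array, 37 on at least 3 and 25 on all 4.

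The cells were EJM, an established human multiple myeloma line, carrying a super-repressor form of IκBα whose expression is switched on by doxycycline. IκBα binds NF-κB transcription factors and holds them outside the nucleus, and the super-repressor resists the breakdown that normally frees them. Doxycycline was given at 20 µg/ml and 37 °C, and cells were taken after 1, 2, 3 and 4 days, with 1 two-colour spotted array a day. Induced cells were labelled with Cy5 and uninduced EJM cells, which carry the same inducible construct, with Cy3. Each value is the deposited log ratio of an array, read here as log2 of induced over uninduced, so a negative value is a lower signal in induced cells. Neither the direction nor the log base is stated with the values. The direction follows the dyes in the labels and folds assume base 2. Were the ratio the other way round, all signs here would be inverted. The sources used here do not say whether the line is a clone, whether the uninduced RNA was a single preparation or whether cells without the construct also received doxycycline. Without a dye swap, a dye bias of a probe and an effect of doxycycline cannot be told apart from induction.

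Chemokines are small secreted proteins that direct cell movement by binding receptors coupled to G proteins. CXCR4, the receptor of CXCL12 (SDF-1), holds plasma cells and myeloma cells in the bone marrow niche. Many chemokine genes, among them CXCL8, CCL20, CCL22, CCL5 and CXCL10, are textbook targets of NF-κB, and CCL3 and CCL4 are secreted by myeloma cells and act on bone-resorbing osteoclasts.

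The day 1 and day 2 arrays stood apart from those of days 3 and 4. They had values for 11386 and 10321 probes, against 13544 and 13872, and the SD of their log2 ratios over probes was 0.517 and 0.569, against 0.345 and 0.38. The Pearson correlation over probes was 0.566 between days 3 and 4 and between 0.02 and 0.316 for the other pairs of days. Of 8 plasma cell markers, 7 had a mean log2 ratio above 0, beside 3390 of all 7713 features, and the median of the means was 0.449. None passed the test, against 0.337% of all features. The daily medians of these markers were 0.570, 0.703, 0.255 and 0.030 on days 1 to 4. The medians of the means were 0.15 for 8 T cell markers, 0.034 for 5 myeloid markers and -0.029 for 2 stromal markers, and 0 passed in each of these lists. The values are ratios and hold no level of expression, so the labelled cell type could not be checked by the level of its markers. NFKBIA, from which the transgene is derived, averaged -0.142 ± 0.073 over 5 probes (SD, 4 arrays; limma adjusted p = 0.61). Its probes disagreed, with means from -0.910 to 0.281 and day 2 values from -1.266 to 0.789, and it is not known here whether any of them detects the transgene.

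The 250 bases before the start site are printed to show letters that match an NF-κB motif, where there are any. They are given for the 2 members with the mean log2 ratios farthest from 0, CXCR4 and CCL3, and for CCL20 and CXCL10. CCL20 had the largest slope over the days, and CXCL10 has matches at 2 separate places. The sequences are RefSeq's on GRCh38.p14, on the strand of the gene, 5′ to 3′, and capitals mark a match to either of the motifs searched for, on either strand. One was the NF-κB (κB) consensus of 10 bases, and the other was GGNNTTTCC, which overlaps it.
CXCR4 (chr2:136118150-136118399, - strand): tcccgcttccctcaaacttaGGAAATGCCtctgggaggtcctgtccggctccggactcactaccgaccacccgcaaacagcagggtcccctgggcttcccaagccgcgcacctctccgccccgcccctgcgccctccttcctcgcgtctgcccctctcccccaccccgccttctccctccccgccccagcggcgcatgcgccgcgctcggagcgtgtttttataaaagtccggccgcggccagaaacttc
CCL3 (chr17:36090144-36090393, - strand): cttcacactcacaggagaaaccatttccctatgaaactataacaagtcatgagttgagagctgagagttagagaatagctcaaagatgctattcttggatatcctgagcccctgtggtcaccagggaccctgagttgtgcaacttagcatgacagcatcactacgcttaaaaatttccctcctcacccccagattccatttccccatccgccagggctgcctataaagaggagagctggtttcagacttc
CCL20 (chr2:227813592-227813841, + strand): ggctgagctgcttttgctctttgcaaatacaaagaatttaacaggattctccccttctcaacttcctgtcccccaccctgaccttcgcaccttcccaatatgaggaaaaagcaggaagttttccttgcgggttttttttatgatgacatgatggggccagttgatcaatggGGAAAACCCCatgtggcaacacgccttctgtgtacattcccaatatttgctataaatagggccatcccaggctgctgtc
CXCL10 (chr4:76023498-76023747, - strand): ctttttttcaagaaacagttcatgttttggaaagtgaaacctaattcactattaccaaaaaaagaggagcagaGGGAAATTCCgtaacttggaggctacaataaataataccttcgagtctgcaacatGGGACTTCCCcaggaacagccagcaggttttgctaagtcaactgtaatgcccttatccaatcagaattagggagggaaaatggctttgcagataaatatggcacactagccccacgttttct

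Promoters of 7 of the 10 members were matched, each 300 bases long with 50 bases after the start. The κB consensus was present in 3 of them (CCL20, CCL22 and CXCL10) and GGNNTTTCC in 4 (CXCR4, CCL20, CXCL8 and CXCL10). Over all 27305 promoters of this length, 10.8% held the κB consensus and 6.3% held GGNNTTTCC. In CXCL10 the κB matches lay at positions -177 to -168 and -122 to -113 from the start site, and the first of these also holds the GGNNTTTCC match. In CCL20 both motifs matched at the same place, from -79. In CXCL8 GGNNTTTCC matched at -91 to -83, and in CXCR4 at -230 to -222 on the opposite strand. The CCL22 matches, from -186 to -176, overlap each other. The windows of CCL3 and CCR2 hold neither set of letters, which says nothing of binding elsewhere. A match describes the letters only.

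The first question was whether induction shifted these genes, taking the 4 days together. No member passed (0 of 10, against 0.337% of all features). The test was limma's on the mean log2 ratio of the days, two-sided against 0, with Benjamini-Hochberg adjustment over all 7713 features and a threshold of 0.05. An unadjusted p under 0.05 was reached by 2 members, CXCR4 and CCL3, against 12.5% of all features. CXCR4 lay below 0 on every day and CCL3 above 0 on every day. In RNA from whole cultures, fewer cells that express a gene and less of its RNA in each cell cannot be told apart. CCL4 also lay above 0 throughout, though its day 2 value was 0.002. Below 0 on all 4 arrays was thus 1 member of 10, against 13.4% of the 6427 features with 4 values, and above 0 were 2 of 10, against 11.7%. The median of the members' means was -0.128, beside -0.032 over all features, and 6 of 10 means were below 0, beside 56% of all features.

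**Figure D1:**
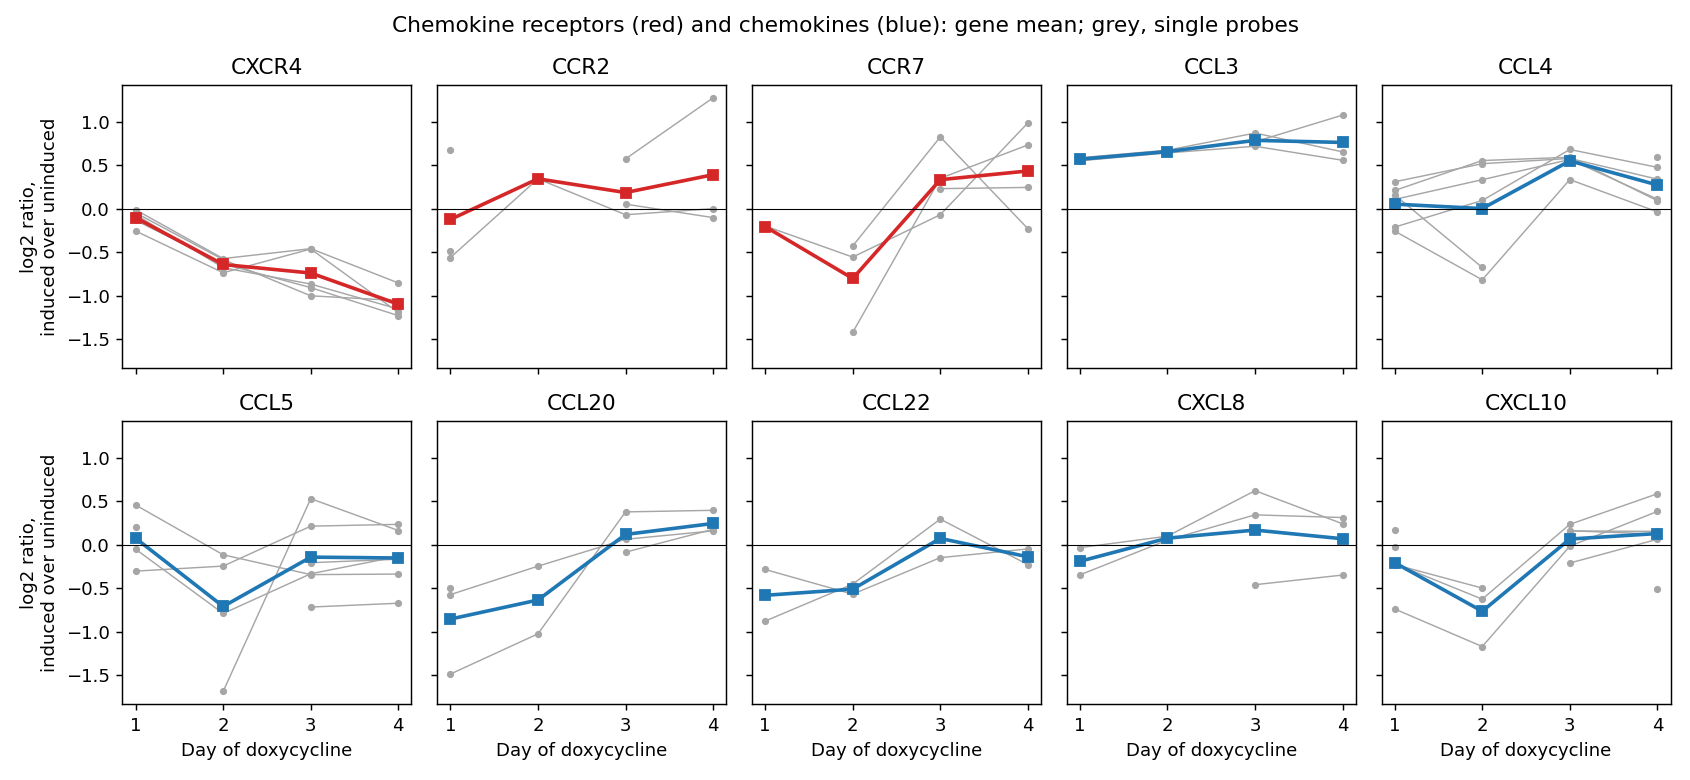
Log2 ratio of induced over uninduced cells (vertical axis) against day of doxycycline (horizontal axis) for the 10 genes, with 1 array a day. Thick lines are the mean over the probes of a gene (receptors red, chemokines blue) and grey points are single probes: the CXCR4 line runs between -0.103 on day 1 and -1.097 on day 4, and the CCL3 line between 0.569 and 0.786.

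CXCR4 had log2 ratios of -0.103, -0.641, -0.739 and -1.097 on days 1, 2, 3 and 4. Its ratio was thus near 0 on day 1 and lowest on day 4. The mean was -0.645 ± 0.411 (SD, 4 arrays), which is 1.56-fold lower in induced cells, with a 95% interval of -1.05 to -0.24 and a limma adjusted p of 0.226. Ranked each day among all features with a value, CXCR4 stood at percentiles 45.7, 10.4, 0.861 and 0.301. At 2-fold or more lower, it belonged on day 4 to 0.479% of the features. The slope on day was -0.308 ± 0.086 log2 units a day (SE; limma adjusted p = 0.304), and no feature of the series passed on the slope (0 of 6427 with limma, 0%, while 15% had an unadjusted p under 0.05). A lower value at every step from day 1 to day 4, as in CXCR4, was found in 9.27% of features.

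The 5 CXCR4 probes with values lay below 0 on all 4 days, and the other 3 of its 8 probes had no value on any array. Probe 30471_1 read -0.133, -0.634, -0.907 and -1.229 on days 1 to 4, and probe 34967_1 read -0.068, -0.678, -0.866 and -1.153. Probe 32657_1 read -0.047, -0.585, -1.001 and -1.056. These 3 probes had a lower value at each step. In probe 31180_1 (-0.256, -0.736, -0.463 and -1.192) and in probe 24328_1 (-0.012, -0.573, -0.459 and -0.853) day 3 was above day 2. On day 1 the probes ran from -0.256 to -0.012 and on day 2 from -0.736 to -0.573, so these days did not overlap. Day 3, from -1.001 to -0.459, overlapped both day 2 and day 4 (-1.229 to -0.853). The SD between the CXCR4 probes was 0.096, 0.067, 0.259 and 0.151 on days 1 to 4, beside a median of 0.327, 0.337, 0.255 and 0.263 over genes with at least 3 probes. Probes of a gene on an array read the same RNA and are technical repeats.

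The call on CXCR4 depended on the arrays used. With days 3 and 4 alone it passed, at -0.918 (limma adjusted p = 0.00528, where 3.61% of 7588 features passed as lower), and with array weights it passed at -0.799 (limma adjusted p = 0.0183, where 1.88% passed as lower). The array weights were 0.408, 0.45, 3.02 and 1.8 on days 1 to 4, so the weighted fit also leaned on days 3 and 4. With days 1 and 2 alone the value was -0.372 (limma adjusted p = 0.418), where 0.0153% of features passed.

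**Figure D2:**
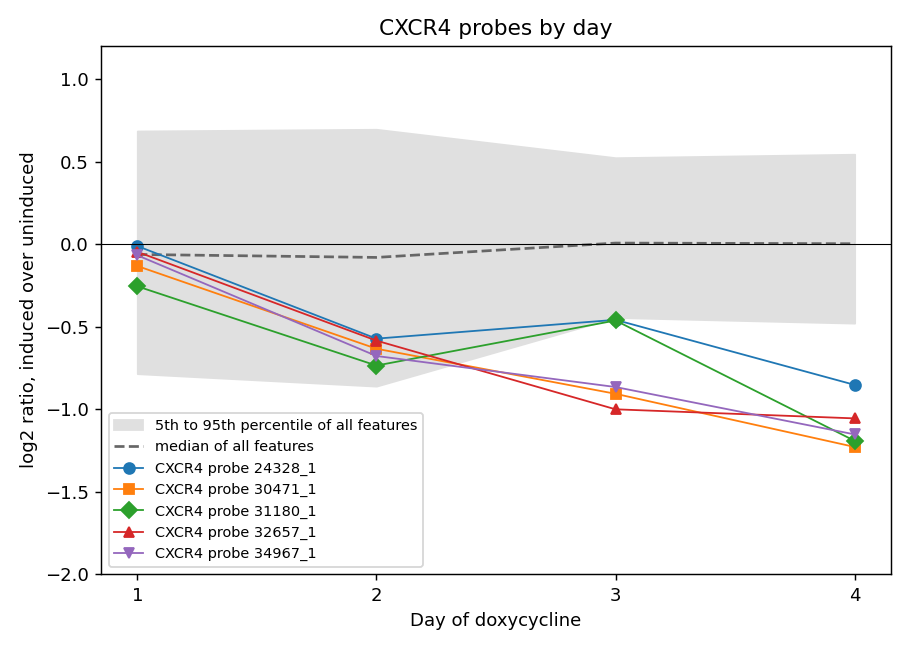
Log2 ratio of induced over uninduced cells (vertical axis) against day (horizontal axis) for the 5 CXCR4 probes with values, over the 5th to 95th percentile of all features (grey band) and their median (dashed). On day 4 all 5 probes lie between -1.229 and -0.853, below the band, whose lower edge is -0.479.

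CCR2, the receptor of the monocyte attractant CCL2, had log2 ratios of -0.123, 0.344, 0.186 and 0.391 on days 1 to 4, with a mean of 0.199 ± 0.232 (SD, 4 arrays; limma adjusted p = 0.561). Its 3 probes disagreed. Probe 17593_1 read 0.678, 0.573 and 1.275 on days 1, 3 and 4, while 30461_1 read -0.562, 0.344, -0.069 and 0.001 on days 1 to 4. Probe 32647_1 read -0.486, 0.053 and -0.102 on days 1, 3 and 4. The mean was -0.071 from the probe with 4 values alone, and 0.307 over all probes without day 1.

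CCR7 guides lymphocytes into lymph nodes along its ligands CCL19 and CCL21. It had log2 ratios of -0.205, -0.802, 0.334 and 0.434 on days 1 to 4, below 0 on the first 2 days and above it on the others. The mean was -0.060 ± 0.569 (SD, 4 arrays; limma adjusted p = 0.924) and the 95% interval ran from -0.562 to 0.443. On day 2 its 3 probes with values lay between -1.421 and -0.428, and on day 4 its 4 probes lay between -0.229 and 0.986. Only probe 32655_1 had all 4 values, at -0.198, -0.556, -0.069 and 0.986, and it was below 0 on day 3. Probe 34194_1 read -0.428, 0.825 and -0.229 on days 2, 3 and 4, below 0 on day 4. Probe 19339_1 read -1.421, 0.35 and 0.733 on those days. Probe 34041_1 read -0.213, 0.231 and 0.245 on days 1, 3 and 4. The daily averages took in 2, 3, 4 and 4 probes. With days 3 and 4 alone the gene's value was 0.384 (limma adjusted p = 0.0639).

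CCL3 is a chemokine that binds CCR1. It had log2 ratios of 0.569, 0.657, 0.786 and 0.762 on days 1 to 4, all above 0 and within a narrow range. The mean was 0.694 ± 0.100 (SD, 4 arrays), which is 1.62-fold higher in induced cells, with a 95% interval of 0.431 to 0.956 and a limma adjusted p of 0.0741. It stood at percentiles 91.8, 94.4, 98.7 and 97.8 of the features on days 1 to 4. Probe 16426_1 read 0.551, 0.642, 0.718 and 0.557, and probe 16822_1 read 0.586, 0.673, 0.87 and 0.654. Another probe, 26474_1, had values only on days 3 and 4, at 0.77 and 1.076. CCL3 passed with days 3 and 4 alone (0.774, limma adjusted p = 0.00602, where 4.69% of features passed as higher) and with array weights (0.753, limma adjusted p = 0.00553, where 1.89% did). The weighted fit leaned on the same days 3 and 4. CCL3 also passed when only features with all 4 values were tested (limma adjusted p = 0.0499, where 0.358% passed as higher). It did not pass with days 1 and 2 alone (0.613, limma adjusted p = 0.239), with arrays scaled to the same spread (limma adjusted p = 0.0985) or with an array left out (limma adjusted p from 0.165 to 0.432). CCL3 has near-identical gene copies in the human genome (CCL3L1 and CCL3L3), none of which has a probe named here, so the signal may include them.

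CCL4, a close relative of CCL3, had log2 ratios of 0.053, 0.002, 0.550 and 0.273 on days 1 to 4. The 4 days averaged 0.219 ± 0.250 (SD; limma adjusted p = 0.533). The average was 0.109 without day 3 and 0.027 with days 1 and 2 alone. Agreement between probes was poorest on day 2, when 4 of 6 lay above 0 and their range was -0.817 to 0.554. On day 3 all 5 probes with values were above 0, from 0.335 to 0.681. Probe 15850_1 read 0.31, 0.518, 0.578 and 0.34 on days 1 to 4, and probe 30468_1 read 0.21, 0.554, 0.592 and 0.092. Probe 28410_1 read -0.257, -0.817, 0.335 and -0.036. As for CCL3, near-identical copies (CCL4L1 and CCL4L2) may be detected by the same probes.

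CCL5 (RANTES), an attractant of T cells and monocytes, had log2 ratios of 0.072, -0.712, -0.145 and -0.155 on days 1 to 4, with a mean of -0.235 ± 0.335 (SD, 4 arrays; limma adjusted p = 0.558). Without day 2 the mean was -0.076, and without day 1 it was -0.337. The day 2 value included probe 19341_1 at -1.688, which read 0.527 and 0.161 on days 3 and 4. Probe 17469_1 read 0.454, -0.118, -0.346 and -0.34 on days 1 to 4, and probe 17942_1 read -0.306, -0.248, 0.211 and 0.232. Probe 17469_1 was above 0 on day 1 alone, and 17942_1 on days 3 and 4 alone. All 5 probes with at least 3 values had means below 0, from -0.333 to -0.028.

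CCL20, the ligand of CCR6, had log2 ratios of -0.857, -0.638, 0.116 and 0.242 on days 1 to 4. Days 1 and 2 lay below 0 and days 3 and 4 above it, as in 14.4% of all features with 4 values. The mean was -0.284 ± 0.544 (SD, 4 arrays; limma adjusted p = 0.596), and with an array left out it ran from -0.460 (without day 4) to -0.094 (without day 1). The slope was 0.405 ± 0.094 a day (SE), the largest in size among the members, with a 95% interval of 0.171 to 0.639, an unadjusted p of 0.00595 and a limma adjusted p of 0.304. Probe 27871_1 read -1.489, -1.027, 0.375 and 0.393, and probe 27873_1 read -0.576, -0.249, 0.06 and 0.157. Probe 17395_1 read -0.505, -0.088 and 0.175 on days 1, 3 and 4. The order of the 4 days was thus the same in 27871_1 and 27873_1. Probe 17395_1 had no day 2 value and shared the order of days 1, 3 and 4.

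CCL22, which attracts T cells through CCR4, had log2 ratios of -0.584, -0.513, 0.070 and -0.141 on days 1 to 4, with a mean of -0.292 ± 0.310 (SD, 4 arrays; limma adjusted p = 0.46). Probe 36447_1 read -0.88, -0.455, 0.292 and -0.231, and probe 37437_1 read -0.287, -0.571, -0.151 and -0.051. Both probes were below 0 on days 1, 2 and 4. Of the members' means below 0, only that of CXCR4 was lower than that of CCL22.

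CXCL8 (interleukin-8), the neutrophil attractant, had log2 ratios of -0.193, 0.073, 0.166 and 0.066 on days 1 to 4, with a mean of 0.028 ± 0.154 (SD, 4 arrays; limma adjusted p = 0.936). The 95% interval of the mean was -0.249 to 0.305. Probe 30444_1 read -0.036, 0.096, 0.619 and 0.238, and probe 32630_1 read -0.349, 0.051, 0.341 and 0.31. Probe 17643_1 had values only on days 3 and 4, and these were below 0, at -0.462 and -0.351. With only the 2 probes with all 4 values the mean was 0.159.

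CXCL10, an interferon-inducible ligand of CXCR3, had log2 ratios of -0.209, -0.767, 0.063 and 0.126 on days 1 to 4, with a mean of -0.197 ± 0.407 (SD, 4 arrays; limma adjusted p = 0.648). Without day 2 the mean was -0.007, and without day 4 it was -0.305. Its lowest value was on day 2, when the 3 probes with values lay between -1.173 and -0.501. Probe 32625_1 read -0.741, -1.173, -0.019 and 0.38 on days 1 to 4, and probe 19337_1 read -0.22, -0.628, 0.232 and 0.583. Other probes differed. Probe 27885_1 was below 0 at each of its values, at -0.23, -0.501 and -0.513 on days 1, 2 and 4. Probe 27463_1 read 0.17, -0.213 and 0.06 on days 1, 3 and 4. The day 4 average took in 7 probes and the day 2 average 3.

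The second question was whether the genes shifted over the days of induction. Slopes were above 0 for 8 of 10 members, beside 54.2% of all features, and 0 of 10 passed. An unadjusted p under 0.05 was reached by CXCR4 with a negative slope and by CCL20 with a positive one (2 of 10, against 15% of all features). CCL20, CXCL10 and CCR7 were below 0 on days 1 and 2 and above 0 on days 3 and 4, an arrangement found in 14.4% of all features. As a difference between the mean of days 3 and 4 and that of days 1 and 2, CCL20 had 0.926 ± 0.190, CCR7 0.888 ± 0.250 and CXCL10 0.583 ± 0.241 (SE; limma adjusted p = 0.219, 0.23 and 0.289). The day 1 and 2 arrays also had the wider spread and the fewer values, and their part in the arrangement was not tested.

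The remaining genes of the family were set beside the members. Of 41 other chemokine ligands, 27 had enough values and 0 passed, against 0.337% of all features (smallest limma adjusted p = 0.39). Their median was -0.067, and 18 were below 0, beside 56% of all features. CXCL14 had the lowest mean, -0.433 ± 0.441 (SD, 4 arrays), and its lowest day was day 2 at -1.093, from 1 of its 3 probes. Its 2 probes with at least 3 values had means of -0.359 and -0.197, both above the mean of the gene. CXCL11, a ligand of CXCR3 like CXCL10, had the highest mean of these ligands, at 0.294 ± 0.206, with 0.470, 0.449, 0.218 and 0.037 on days 1 to 4. CXCL12, the ligand of CXCR4, read 0.393, -0.059, 0.183 and 0.260, with a mean of 0.194 ± 0.190 (SD, 4 arrays; limma adjusted p = 0.548). CXCL13, the attractant of B cells, lay, like CCL20, below 0 on days 1 and 2 and above it on days 3 and 4, at -0.635, -0.805, 0.169 and 0.374. So did CCL21, CXCL9 and PPBP, and the receptors CCR4, CXCR1, CXCR5 and CXCR6, beside 14.4% of all features with 4 values. Values on all 4 arrays were present for 23 of the other ligands and 11 of the other receptors. The CXCR1 value on day 2 was -0.004, and the day 2 values of CXCL13, PPBP and CXCR6 rest on 1 probe each.

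CXCL2, a neutrophil attractant, had a mean of -0.277. It was below 0 on each day, as were 13.4% of features with 4 values, though its day 4 value was -0.002. Other means below 0 were those of CCL15 (-0.272), CXCL1 (-0.233, 3 arrays), PF4 (-0.222), PPBP (-0.205), CCL18 (-0.182), CX3CL1 (-0.134), CCL28 (-0.124), XCL2 (-0.124), CXCL9 (-0.115) and CXCL3 (-0.091). CCL2, CCL1, CXCL5, CCL8 and CCL23 lay between -0.067 and -0.003. Means above 0 were those of CCL16 (0.241), CCL19 (0.185), CCL17 (0.130), CXCL16 (0.127), CCL25 (0.059, 3 arrays), CCL21 (0.042) and XCL1 (0.018). The CCL19 mean rests on day 2, at 1.005, while its other days lay between -0.137 and -0.045.

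Of 20 other chemokine receptors 13 had enough values and 0 passed, against 0.337% of all features (smallest limma adjusted p = 0.286), with a median of 0.066. CCR1, a receptor of CCL3 and CCL5, read 0.717, 0.758, 0.258 and 0.141 on days 1 to 4, above 0 throughout and higher on days 1 and 2, and its 5 probes all had means above 0. Its mean was 0.468 ± 0.315 (SD, 4 arrays; limma adjusted p = 0.286). CXCR3, the receptor of CXCL10 and CXCL11, was measured by 1 probe, at 1.327, 0.775, -0.009 and 0.235, with a mean of 0.582 ± 0.595. ACKR3, the other receptor of CXCL12, read -0.748, -0.387 and -0.200 on days 1, 3 and 4, and its mean of -0.445 ± 0.279 (SD, 3 arrays) did not pass (limma adjusted p = 0.356). CCR8 had a mean of -0.602 (3 arrays) that rests on day 1, at -1.426. The other means were -0.240 for ACKR2, -0.237 for ACKR1, -0.178 for CCR4, -0.055 for CXCR6, 0.066 for CXCR5, 0.095 for CXCR1, 0.118 for CX3CR1, 0.150 for CXCR2 and 0.176 for CCRL2. Among all 16 receptors measured, CXCR4 had the lowest mean.

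**Figure D3:**
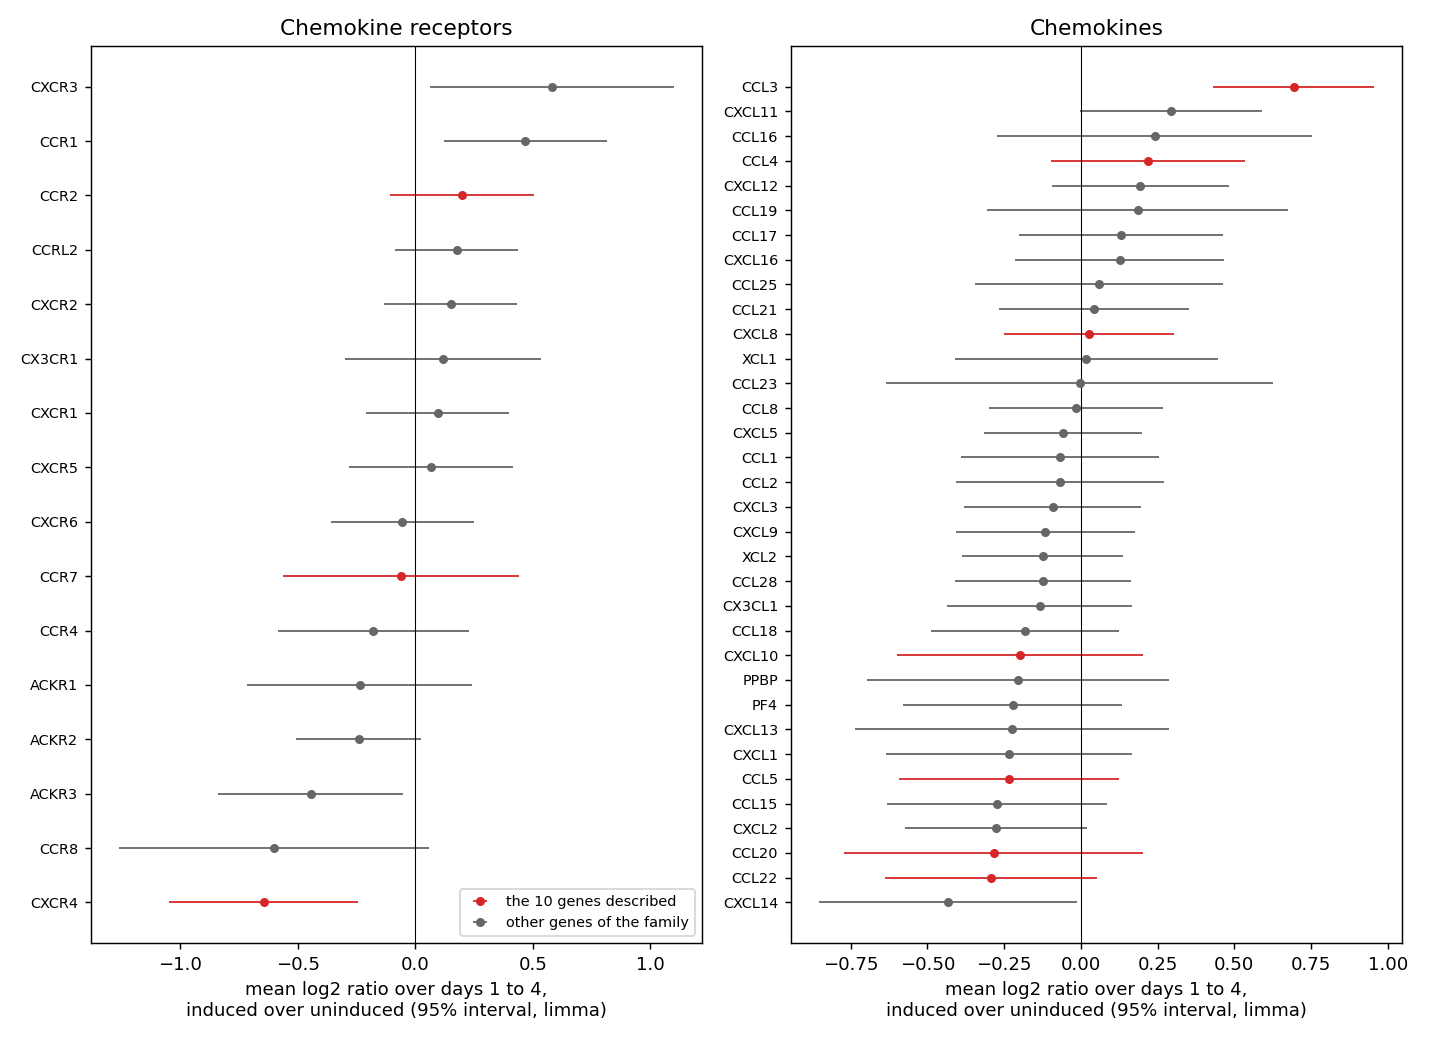
Mean log2 ratio of induced over uninduced cells over days 1 to 4 (horizontal axis) with its 95% interval from limma, for the 16 receptors (left) and 34 chemokines (right) with values on at least 3 arrays. The 10 genes described are red: CXCR4 at -0.645 is the lowest receptor and CCL3 at 0.694 the highest chemokine.

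Genes that carry the signal of chemokine receptors showed no call (0 of 27 measured, against 0.337% of all features). Their median was -0.046, and 15 were below 0, beside 56% of all features. The largest means above 0 were those of the G protein subunit GNAI2 (0.558 ± 0.508), the kinase PRKCZ (0.447 ± 0.152) and the GTPase RAC2 (0.376 ± 0.242). The largest below 0 were those of RGS2 (-0.355 ± 0.152), which shortens G protein signalling, the focal adhesion kinase PTK2 (-0.300 ± 0.327) and GNAI1 (-0.290 ± 1.021, SD over 3 arrays; 4 for the others).

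Of 34 NF-κB targets that are not chemokines, 27 were measured, 21 had means below 0, beside 56% of all features, and the median was -0.163. Only TNFAIP3 (A20) was called (1 of 27, against 0.337% of all features). It was lower at -1.065, -1.521, -1.583 and -1.704 on days 1 to 4 (limma adjusted p = 0.0178). Next below 0 came NFKB2 (-0.884 ± 0.429) and FAS (-0.811 ± 0.256), which did not pass. FAS read -0.593, -0.679, -0.799 and -1.174. Like TNFAIP3 and CXCR4 it had a lower value at every step, as did 9.27% of features with 4 values. The largest means above 0 were those of TNFAIP2 (0.694 ± 0.119, SD over 3 arrays), CD86 (0.145 ± 0.179) and IRF4 (0.145 ± 0.311), none of which passed. The daily medians of the 27 measured NF-κB targets were -0.284, -0.283, -0.142 and -0.171. The 10 chemokine and receptor genes had medians of -0.158, -0.576, 0.141 and 0.184, beside -0.062, -0.081, 0.017 and 0.011 over all features tested.

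**Figure D4:**
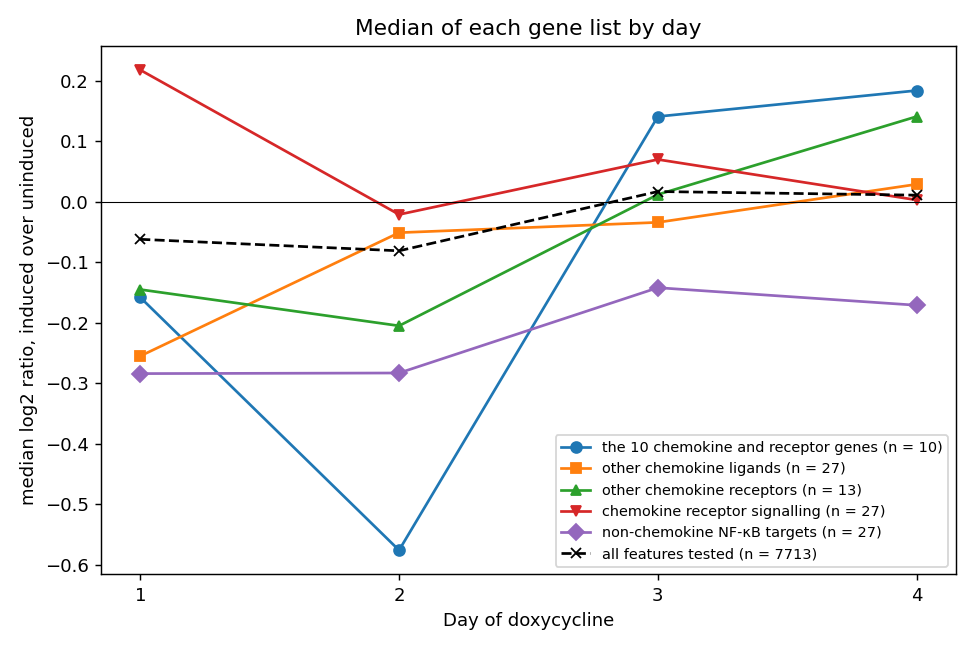
Median log2 ratio of induced over uninduced cells (vertical axis) by day (horizontal axis) for the 10 genes, the other chemokines, the other receptors, the receptor signalling genes, the other NF-κB targets and all features tested. The median of the 10 genes lies at -0.576 on day 2 and 0.184 on day 4, and that of the other NF-κB targets stays below 0 on each day.

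The genes whose 4 daily log2 ratios lay closest to those of CXCR4, by Euclidean distance among 3768 other named genes with all 4 values, were NCAPG2 (distance 0.276), CDK14 (0.369), ARHGAP19 (0.379), CBFB (0.387) and ACOT7 (0.426). NCAPG2, a subunit of condensin, read -0.138, -0.897, -0.802 and -1.172 on days 1 to 4, from 1 probe. CBFB, the partner subunit of RUNX factors, read -0.018, -0.621, -0.857 and -0.738 from 3 probes. Among the other members the closest was CCL5, at a distance of 1.129 and rank 382, and the farthest CCL3, at 2.814 and rank 3724.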

How the data were processed

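Gene expression was measured on 4 two-colour arrays of EJM myeloma cells, 1 for each of 1, 2, 3 and 4 days of induction, with 50 µg of total RNA reverse-transcribed per dye, per the labels' protocols. The deposited values are log ratios, used as log2. The sources used here do not give the background correction, normalization, spot filter or log base of the authors. Array medians lay between -0.068 and 0.004. Symbols came from a platform annotation updated through RefSeq (GRCh38.p14). Probes of a symbol were averaged per array. Means against 0 (at least 3 arrays) and slopes on day (4 arrays) were tested two-sided with limma 3.58.1 in R 4.3.3, with Benjamini-Hochberg adjustment over all features. The code was first run on simulated data with independent arrays and with shifts and slopes larger than any member's. That run does not tell whether changes of the members' size would be found. The members and lists were chosen with earlier results of these data known. Named genes were the members, every other measured chemokine and receptor, the 3 largest means in each direction and any called gene of the signalling and NF-κB lists, the 5 genes nearest to CXCR4, and NFKBIA. The 4 arrays are different days, not replicates, and nothing says they came from separate cultures, so p-values measure only the spread between arrays, which may be technical. Their number limits the precision. Alternatives covered scaling, centring, choice of probes, array weights, a robust prior, missing values and the arrays used.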

Additional observations from a re-analysis of the deposited data

Results flagged for a closer look

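Over the first 2 days and the last 2 days, 3 of the 10 genes lay on opposite sides of 0, below on days 1 and 2 and above on days 3 and 4. These are averages over probes, and in each gene some single probe differed. The difference, later minus earlier days, was 0.93 for CCL20, 0.89 for CCR7 and 0.58 for CXCL10, on the log2 scale. None passed in limma (adjusted p = 0.219, 0.23 and 0.289), and 14.4% of all features had this arrangement.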

How the results depend on the processing

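With 26 features past the threshold on the mean, the number was 3 with arrays scaled to the same spread, 291 with array weights, 630 with days 3 and 4 alone, 1 with days 1 and 2 alone, 42 among features with values on all 4 arrays, and 3 to 5 with an array left out. The number of members past it was 2 with array weights and with days 3 and 4 alone (CXCR4 and CCL3 in both), and 1 (CCL3) among features with all 4 values, against 0 otherwise. The array weights leaned on days 3 and 4, so the first 2 of these settings are not separate checks. No member passed on the slope under any of the 11 alternatives run. The sign of the mean turned for CCR7 with scaled arrays (0.035), when a gene was read from its probe with fewest missing values or from probes with all 4 values (0.041 each), with array weights (0.237), without day 2 (0.188, from -0.224 to 0.188 with an array left out) and with days 3 and 4 alone (0.384). It turned for CCR2 with either choice of probe (-0.071 each), and for CCL20 with array weights (0.026) and with days 3 and 4 alone (0.179). It also turned for CXCL10 with days 3 and 4 alone (0.095), and for CXCL8 without day 3 (-0.018, from -0.018 to 0.102 with an array left out) and with days 1 and 2 alone (-0.059). The slope turned for CCL5 without day 1 (0.279, from -0.109 to 0.279 with an array left out) and as later minus earlier days (0.17), and for CXCL8 without day 1 (-0.004, up to 0.179 with another array left out). The causes were not tested. CXCR4 kept its sign in all 13 alternatives on the mean (-0.918 to -0.372) and all 11 on the slope, as did CCL3 (0.613 to 0.774 on the mean). Every probe value of CXCR4 lay below 0 and every probe value of CCL3 above 0. No choice of arrays, probes, weights or scale could therefore have turned the sign of their means. With 1 array a day no value of a single day has a replicate check, and without spot intensities dim spots could not be filtered. Each ratio already pairs induced with uninduced cells on an array, and no further pairing was fitted.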
